A study of Mus musculus with 8 samples.

Results

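The epidermal differentiation complex is a run of genes on chromosome 3 that build the outer layer of the skin, and its transcripts were measured here in cells of the thymus. Members were the genes with a probe whose name in the scanner files begins with Sprr, Lce or S100a, or is Flg, Flg2, Lor, Ivl, Hrnr, Rptn, Tchh, Tchhl1, Crnn or Crct1. The rule found 67 probes for 57 genes, of 34964 gene names on the array. They comprise 15 Sprr, 19 Lce and 14 S100a names, 6 fused S100 genes (Crnn, Flg2, Hrnr, Rptn, Tchh and Tchhl1), and Ivl, Lor and Crct1. No probe carried the name Flg. All 67 probes lie on chromosome 3 of mm9 between bases 90314959 and 93368496, a span of 3.05 Mb.

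The study set mice lacking the homeobox gene Cdx1 beside wild-type mice, all on a mixed C57BL/6 and 129 background. The groups were 3 Cdx1-/- and 3 Cdx1+/+ samples of medullary thymic epithelial cells (mTEC), sorted as Epcam+ UEA1+ CD45- Fluorogold- CD80hi MHCIIhi. Beside them stood 1 Cdx1-/- and 1 Cdx1+/+ sample of small intestine epithelial cells (SIEC), sorted as Epcam+ CD45- Fluorogold-. Each mTEC sample pooled 4 to 6 thymi and each SIEC sample pooled 3 mice. No age of the mice or design of the Cdx1 allele was stated. RNA of each sample was hybridised to a single-colour Agilent array.

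The complex is best known from the epidermis. Keratinocytes that leave the basal layer switch on loricrin, involucrin and the small proline-rich and late cornified envelope proteins, which transglutaminases cross-link into a rigid shell under the cell membrane. The fused S100 proteins, filaggrin among them, fill and bundle the keratin within, while the short S100 proteins are calcium-binding regulators that also act in other tissues. Medullary thymic epithelium displays transcripts of many peripheral tissues to developing T cells, and some of its mature cells take on a keratinised, Hassall corpuscle-like state.

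A level below is the log2 of a probe's processed signal minus the 75th percentile of its array, so that 1 unit is a 2-fold step. Levels of different probes cannot be set against each other, and only differences between arrays for the same probe are compared. The share of spots well above background was 58.6% to 63.5% on the mTEC arrays and 44.6% and 46.3% on the SIEC arrays, and no spot was saturated. Aire, the regulator of ectopic transcription in mTEC, averaged 3.39 in Cdx1-/- and 3.42 in Cdx1+/+ mTEC and was not well above background in SIEC. Vil1, the villin of the enterocyte brush border, was at 8.01 and 7.51 on the 2 SIEC arrays. Cdx1 itself was at 4.80, 4.99 and 5.00 in Cdx1-/- mTEC, against 5.88, 5.91 and 5.97 in Cdx1+/+ mTEC (difference -0.99, SE 0.09, limma adjusted p = 0.0038). In SIEC its probe was at 6.48 in the library labelled Cdx1-/- and at 4.87 in the library labelled Cdx1+/+, against the order of the labels. No source used here says whether this probe lies in the deleted stretch, so it does not settle the labels, and the SIEC libraries are named below by their labels.

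To show what the array read, the probes of 4 short S100 genes are printed with capitals on the motif TTCNAGGAG, codons that close a calcium-binding loop of the S100 fold. The motif was found on the printed strand in 4 of 17 S100a probes, in 0 of the other 50 member probes and in 0.153% of all 55681 probes. The S100a1 probe lies at chr3:90315191-90315250 on the minus strand. The probes of S100a4 at chr3:90409734-90409793, of S100a6 at chr3:90418160-90418219 and of S100a8 at chr3:90473778-90473837 lie on the plus strand, all in mm9.
S100a1: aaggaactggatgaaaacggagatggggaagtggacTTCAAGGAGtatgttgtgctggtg
S100a4: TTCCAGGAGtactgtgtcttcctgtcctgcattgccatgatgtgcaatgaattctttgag
S100a6: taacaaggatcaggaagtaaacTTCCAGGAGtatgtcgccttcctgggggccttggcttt
S100a8: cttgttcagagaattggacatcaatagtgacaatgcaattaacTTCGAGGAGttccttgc

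Loss of Cdx1 in mTEC came with higher levels of some members of the complex, chiefly fused S100 genes and single envelope genes, while no Lce gene passed with all 6 mTEC arrays (Lce1l passed without Cdx1-/- replicate 1). Of 57 members, 55 cleared the signal filter (2 arrays of a mTEC group well above background) and were tested. In Cdx1-/- mTEC 8 were higher (14.5%, against 6.20% of all 24337 genes tested) and 1 was lower (1.82%, against 6.61%), by limma with a Benjamini-Hochberg adjusted p under 0.05. The median log2 difference was 0.16 over the 55 members and 0.00036 over all genes tested. A difference above 0 was seen in 39 members (70.9%), against 12180 of the 24337 genes tested. In these bulk samples, fewer cells of a type and less RNA per cell cannot be told apart.

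**Figure D1:**
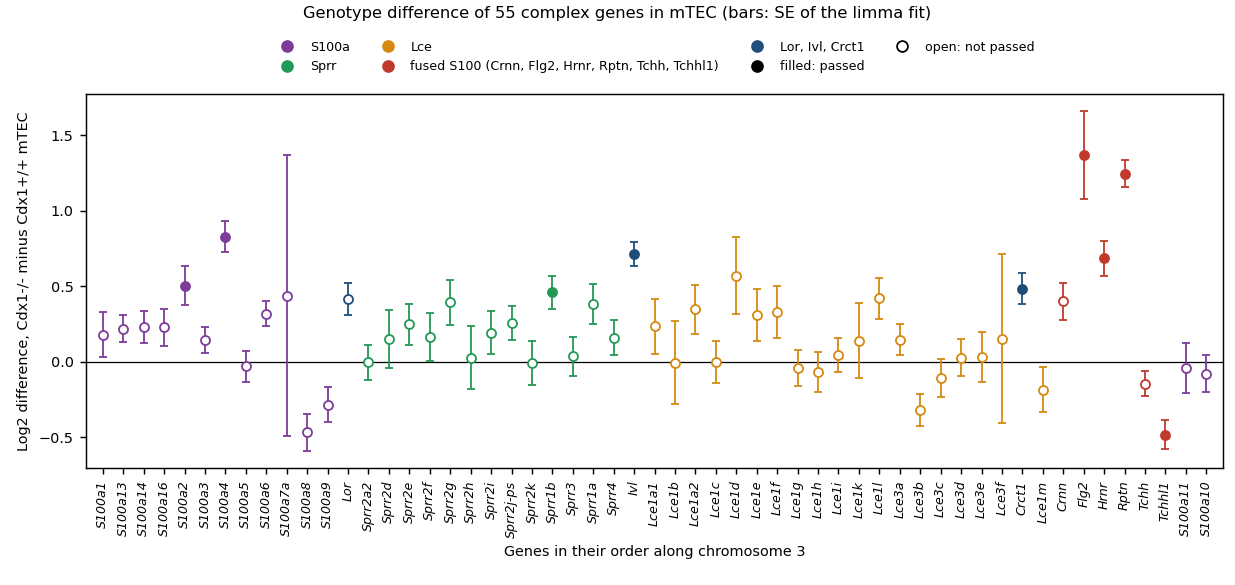
Log2 difference between Cdx1-/- and Cdx1+/+ mTEC (vertical axis, Cdx1-/- minus Cdx1+/+) for the 55 members tested, in their order along chromosome 3, with bars for the SE of the limma fit and filled points for members that passed. Flg2, Hrnr and Rptn stand next to each other at 1.37, 0.68 and 1.25, and all 19 Lce points are open.

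The fused S100 genes gave 3 higher and 1 lower of 6 tested, with a median difference of 0.54. Rptn encodes repetin, a fused S100 protein of the cornified envelope. It stood at 2.55, 2.61 and 2.62 in Cdx1-/- mTEC, against 1.26, 1.46 and 1.33 in Cdx1+/+ mTEC. The groups were far apart, and the difference of 1.25 (SE 0.09, limma adjusted p = 0.0027) is a 2.37-fold higher level. Hrnr, which encodes the filaggrin-like protein hornerin, was at 0.18, 0.17 and -0.15 in Cdx1-/- mTEC, against -0.56, -0.62 and -0.68 in Cdx1+/+ mTEC. All Cdx1-/- values were above all Cdx1+/+ values, by 0.68 on average (SE 0.11, limma adjusted p = 0.0153), and without Cdx1+/+ replicate 3 the adjusted p was 0.061.

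Flg2, the filaggrin-2 gene, had the largest difference of any member that passed. Its levels were -1.92, -1.60 and -2.32 in Cdx1-/- mTEC, against -2.85, -3.87 and -3.22 in Cdx1+/+ mTEC, all well above background. The groups did not overlap, but both were spread widely (SD 0.36 in Cdx1-/- and 0.52 in Cdx1+/+ mTEC), and the difference of 1.37 carried an SE of 0.29 (limma adjusted p = 0.0310). With the replicate number as a block the adjusted p was 0.055. It was 0.0741 without Cdx1-/- replicate 1, and without Cdx1-/- replicate 2 or Cdx1+/+ replicates 2 or 3 it lay between 0.062 and 0.0843. Over the 16 alternative fits the difference of Flg2 ran from 0.75 to 1.60, against 1.20 to 1.30 for Rptn, so its rank depended on the processing.

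Crnn, the gene of cornulin, was at 1.23, 1.27 and 1.30 in Cdx1-/- mTEC, against 0.76, 0.72 and 1.12 in Cdx1+/+ mTEC. The groups did not overlap, but the difference of 0.40 (SE 0.12) did not pass (limma adjusted p = 0.0789), although without Cdx1+/+ replicate 3 it was 0.53 (0.0466). Tchh and Tchhl1, further along the cluster, lay on the other side of 0. Tchhl1, which encodes a trichohyalin-like protein, was the only member that passed as lower, with 0.13, 0.30 and 0.40 in Cdx1-/- mTEC, against 0.80, 0.74 and 0.73 in Cdx1+/+ mTEC. The difference was -0.48 (SE 0.10, limma adjusted p = 0.0262), and leaving out Cdx1-/- replicates 1 or 2 or any of the Cdx1+/+ replicates gave adjusted p-values from 0.0569 to 0.0811. Tchh, the trichohyalin gene of the hair follicle, was at 2.14, 2.03 and 2.04 in Cdx1-/- mTEC, against 2.24, 2.15 and 2.25 in Cdx1+/+ mTEC. That is a difference of -0.14 (SE 0.08), and it did not pass (limma adjusted p = 0.285).

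The single envelope genes were 2 higher of 3 tested. Ivl encodes involucrin, an early scaffold of the cornified envelope. It was at 0.00, 0.06 and 0.00 in Cdx1-/- mTEC, against -0.75, -0.65 and -0.68 in Cdx1+/+ mTEC. The difference was 0.71 (SE 0.08, limma adjusted p = 0.0056), and a second Ivl probe gave 0.79. Crct1, whose product is a cysteine-rich protein, was at 4.40, 4.60 and 4.47 in Cdx1-/- mTEC, against 3.86, 4.14 and 4.01 in Cdx1+/+ mTEC. It rose by 0.48 (SE 0.10, limma adjusted p = 0.0320), but leaving out any Cdx1-/- replicate, or Cdx1+/+ replicates 1 or 3, gave adjusted p-values from 0.0551 to 0.0953. Lor, the gene of loricrin, the main protein of the mature envelope, was at 4.61, 4.59 and 4.36 in Cdx1-/- mTEC, against 4.10, 4.01 and 4.21 in Cdx1+/+ mTEC. The groups did not overlap, and the difference of 0.41 (SE 0.11) fell just short of the threshold (limma adjusted p = 0.0506).

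**Figure D2:**
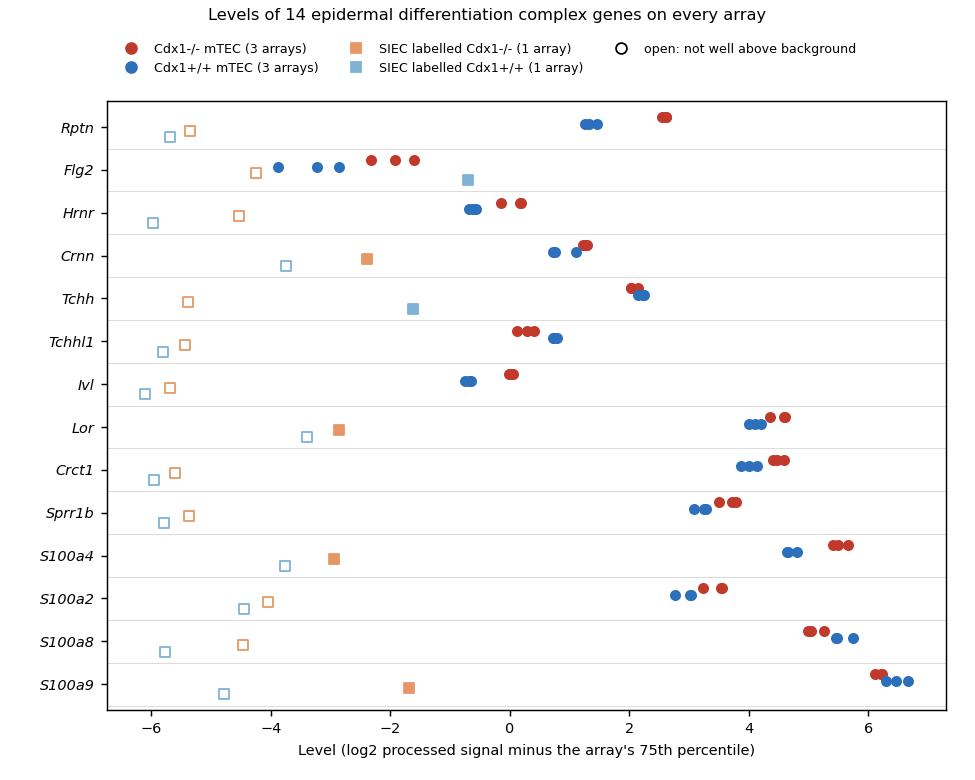
Level (log2 processed signal minus the array's 75th percentile) of 14 members on each of the 8 arrays, with open symbols where the probe was not well above background. For Rptn the 3 Cdx1-/- mTEC arrays sit at 2.55 to 2.62 and the 3 Cdx1+/+ mTEC arrays at 1.26 to 1.46, and for Flg2 and Tchh the SIEC library labelled Cdx1+/+ lies well above the SIEC library labelled Cdx1-/-.

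Of the small proline-rich genes, 13 of 15 were tested, 1 was higher and none was lower. Sprr proteins are short bridges between other envelope proteins. Sprr1b was at 3.51, 3.78 and 3.72 in Cdx1-/- mTEC, against 3.09, 3.25 and 3.29 in Cdx1+/+ mTEC. It rose by 0.46 (SE 0.11, limma adjusted p = 0.0398), and leaving out Cdx1-/- replicates 2 or 3 or any of the Cdx1+/+ replicates gave adjusted p-values from 0.0876 to 0.1093. Sprr1a was at 5.58, 5.98 and 5.93 in Cdx1-/- mTEC, against 5.36, 5.57 and 5.41 in Cdx1+/+ mTEC, a difference of 0.38 (SE 0.13) that did not pass (limma adjusted p = 0.102). It passed without Cdx1-/- replicate 1, at 0.51 (limma adjusted p = 0.0468), and with quantile normalization, at 0.42 (0.0423). Sprr2d was at 2.36, 2.96 and 2.50 in Cdx1-/- mTEC, against 2.34, 2.31 and 2.72 in Cdx1+/+ mTEC, and the groups overlapped. Over the 13 genes the differences ran from -0.0081 to 0.46, with a median of 0.16. The probes named for Sprr2a1 and Sprr2b alone were not well above background on any array.

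Sprr2a2 was read by 3 probes, and all 3 also list the transcript of Sprr2a1, so these copies cannot be told apart. The brightest was at 7.44, 7.68 and 7.82 in Cdx1-/- mTEC, against 7.58, 7.66 and 7.73 in Cdx1+/+ mTEC, a difference of -0.0044 (SE 0.12, limma adjusted p = 0.985). A dimmer probe gave -0.82 with an adjusted p of 0.034 when every probe was tested on its own, and the remaining probe gave -0.13. The 3 probes of this gene therefore disagreed on the size of the genotype difference.

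None of the 19 Lce genes passed in either direction with all 6 mTEC arrays. Without Cdx1-/- replicate 1, which is also the fit on slide 1 alone, Lce1l passed as higher by 0.56 (limma adjusted p = 0.0313), against 0.42 (0.0904) with that array. Over the 16 alternative fits the Lce1l difference ran from 0.20 to 0.56, with limma adjusted p up to 0.478. Its probe was dim, averaging -3.69 in Cdx1-/- and -4.11 in Cdx1+/+ mTEC. The lowest signals that counted as well above background on the mTEC arrays were -4.65 to -5.35. Lce products are late additions to the envelope of the outermost living keratinocytes. Over the 19 Lce genes the differences ran from -0.32 to 0.57 with a median of 0.046. Lce3b was at 2.57, 2.73 and 2.88 in Cdx1-/- mTEC, against 3.01, 3.13 and 2.99 in Cdx1+/+ mTEC. Its difference of -0.32 (SE 0.11) was the lowest of the family (limma adjusted p = 0.0997). Lce3c was at 1.96, 2.16 and 2.38 in Cdx1-/- mTEC, against 2.18, 2.38 and 2.27 in Cdx1+/+ mTEC. The Lce3b and Lce3c probes share 54 of 60 bases, so each may read some transcript of its neighbour. Lce3d, with 2.08, 2.24 and 2.41 in Cdx1-/- mTEC, against 2.12, 2.38 and 2.15 in Cdx1+/+ mTEC, overlapped between genotypes as Lce3c did. Lce1d stood highest in the family at 0.57 (SE 0.25, limma adjusted p = 0.184), with 0.99, 1.02 and 0.86 in Cdx1-/- mTEC, against 0.72, -0.23 and 0.68 in Cdx1+/+ mTEC. Its Cdx1+/+ replicate 2 lay below all other mTEC arrays.

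Among the short S100 genes, 2 of 14 were higher and none was lower. S100a4 encodes a calcium-binding protein linked to cell motility. It was at 5.50, 5.41 and 5.67 in Cdx1-/- mTEC, against 4.65, 4.64 and 4.81 in Cdx1+/+ mTEC. The groups were well apart, by 0.83 (SE 0.10, limma adjusted p = 0.0074), a 1.77-fold higher level. The probe of S100a4 printed above, a second probe of the gene, gave 0.81. S100a2 was at 3.56, 3.24 and 3.53 in Cdx1-/- mTEC, against 3.03, 2.76 and 3.02 in Cdx1+/+ mTEC. Its difference of 0.50 (SE 0.13) passed narrowly (limma adjusted p = 0.0490) and did not pass in 13 of 16 alternative fits, without Cdx1-/- replicates 1 or 3 and without each Cdx1+/+ replicate among them. S100a6 was at 6.25, 6.17 and 6.33 in Cdx1-/- mTEC, against 5.89, 5.95 and 5.96 in Cdx1+/+ mTEC, and its difference of 0.32 (SE 0.08) did not pass (limma adjusted p = 0.0523). S100a14, S100a16 and S100a13 had differences of 0.23, 0.23 and 0.22 that did not pass either. The brightest S100a16 probe was at 7.00, 7.34 and 7.38 in Cdx1-/- mTEC, against 6.95, 7.03 and 7.06 in Cdx1+/+ mTEC. S100a14 was at 7.62, 7.90 and 7.91 in Cdx1-/- mTEC, against 7.53, 7.58 and 7.63 in Cdx1+/+ mTEC, so that the groups overlapped for both of these probes. A dimmer S100a16 probe was at 6.41 to 6.61 in Cdx1-/- mTEC, against 6.06 to 6.12 in Cdx1+/+ mTEC, with no overlap. Its difference was 0.41, with an adjusted p of 0.0359 when every probe was tested on its own, and with quantile normalization the brightest probe passed too, at 0.34 (0.0362).

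The calprotectin pair ran the other way. S100a8 and S100a9 encode the subunits of calprotectin, abundant in neutrophils and in stressed keratinocytes. S100a8 was at 4.99, 5.04 and 5.27 in Cdx1-/- mTEC, against 5.47, 5.47 and 5.75 in Cdx1+/+ mTEC. The groups did not overlap, and the difference of -0.47 (SE 0.12) did not pass (limma adjusted p = 0.0555). S100a8 passed as lower in 4 of 16 alternative fits. With the replicate number as a block its adjusted p was 0.0297 and the lower count became 2. S100a9 was at 6.11, 6.22 and 6.24 in Cdx1-/- mTEC, against 6.46, 6.29 and 6.66 in Cdx1+/+ mTEC, a difference of -0.28 (SE 0.11, limma adjusted p = 0.151). S100a7a, the mouse psoriasin-like gene, was at -1.22 in Cdx1-/- replicate 1, but at -5.13 and -4.23 in the other Cdx1-/- samples, and at -3.97, -4.31 and -3.61 in Cdx1+/+ mTEC. Its difference rests on that array and did not pass (limma adjusted p = 0.784).

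Granulocytes, monocytes and macrophages also make S100a4, S100a8 and S100a9, although the gate left out CD45+ cells. Of 23 marker genes of these cells tested, 2 were higher in Cdx1-/- mTEC and 2 were lower, with a median difference of -0.16. The shares over all genes tested were 6.20% higher and 6.61% lower. Lyz2 (0.93) and Fcgr3 (0.76) rose, and Mrc1 fell by 1.43 and Retnlg fell by 0.87. The summed linear level of the list was 119 to 138 in Cdx1-/- mTEC and 136 to 163 in Cdx1+/+ mTEC, against 145 to 207 in SIEC. Each of the 23 was well above background on at least 1 mTEC array. Ptprc, which encodes CD45, averaged -1.67 in Cdx1-/- and -1.85 in Cdx1+/+ mTEC, a difference of 0.18 (limma adjusted p = 0.488). The part of such cells in the S100a values was not tested.

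Several genes that work with the complex but lie elsewhere were higher in Cdx1-/- mTEC. Of 28 cornified envelope partners and desmosome genes tested, 12 rose and 1 fell, and the median difference was 0.33. The calmodulin-like gene Calml3 rose by 1.25 (SE 0.09, limma adjusted p = 0.0027), dermokine (Dmkn) by 0.83, the suprabasal keratin Krt10 by 1.07 and Krt6b by 0.66. Krt1, the partner of Krt10, differed by 0.045 and did not pass (limma adjusted p = 0.886). The 1 that fell was the keratin Krt2, by 0.47, named after its value was seen. Of 25 transglutaminases, proteases and lipid enzymes of cornification, 10 rose and 1 fell, with a median of 0.38. The protease inhibitor Spink5 rose by 1.10, the ceramide synthase Cers3 by 0.91, the lipase Lipm by 0.65 and the retroviral-like protease Asprv1 by 0.62. The cross-linking enzymes Tgm1 (0.44, adjusted p = 0.0590) and Tgm3 (-0.63, adjusted p = 0.119) did not pass in this limma fit.

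Of 36 epidermal differentiation regulators, 9 rose and none fell, with a median of 0.065. Ahr, the aryl hydrocarbon receptor, rose by 0.78, Tfap2a by 0.68, Grhl1 by 0.51 and Klf4 by 0.51. Of 20 other genes tested inside the cluster, 4 rose and 2 fell, with a median of 0.083. The peptidoglycan receptor gene Pglyrp4 rose by 1.02, the keratinocyte proline-rich gene Kprp by 0.77 and the thioesterase Them5 by 0.72, while the chromatin repressor gene Gatad2b fell by 0.97. Of 11 basal keratinocyte and basal epithelial genes tested, none rose and 2 fell, Col17a1 by 0.63 and Lamb3 by 0.57, and the median was -0.21. Over all genes tested, 6.20% were higher and 6.61% lower, and differences between the lists were not tested. The lists were chosen with earlier results of these data known, and the counts are descriptions.

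**Figure D3:**
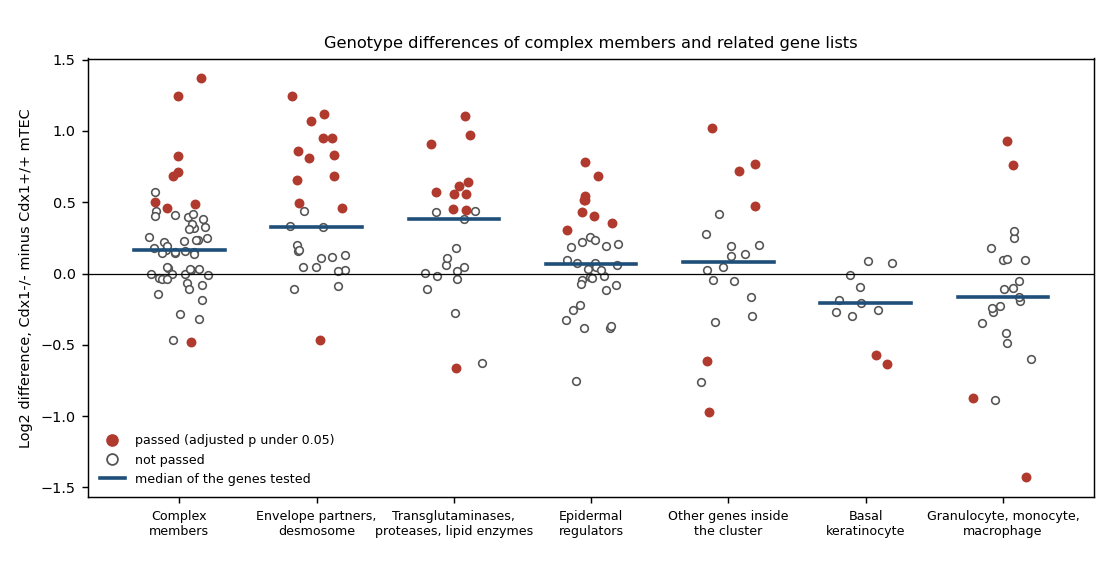
Log2 difference between Cdx1-/- and Cdx1+/+ mTEC (vertical axis, Cdx1-/- minus Cdx1+/+) for each tested gene of the complex and of 6 related lists, with filled points for genes that passed and a bar at the median of each list. The medians are 0.33 for envelope partners and 0.38 for cornification enzymes, against -0.21 for basal keratinocyte genes.

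The counts of the other marker lists stand beside 6.20% higher and 6.61% lower over all genes tested. S100 genes outside chromosome 3 gave 0 higher and 1 lower of 3, and S100g, the intestinal calbindin gene, fell by 0.69. S100 partners and receptors gave 2 higher and 1 lower of 12, among them annexin A1 (Anxa1, 0.77). Mature mTEC markers gave 1 higher and 1 lower of 18, immature mTEC 0 and 1 of 8, and cortical thymic epithelium 1 and 0 of 13. Thymocyte genes gave 0 higher and 3 lower of 15, dendritic cell genes 0 and 0 of 9, and B cell genes 2 and 1 of 6. Mesenchymal genes gave 0 higher and 2 lower of 11, and endothelial genes 0 and 2 of 9. Enterocyte genes gave 0 higher and 12 lower of 18, and their summed linear level was 46.7 to 48.4 in Cdx1-/- mTEC and 81.5 to 86.6 in Cdx1+/+ mTEC, against 3287 to 4976 in SIEC.

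The promoters of the genes that rose were read for short motifs, 250 bases before to 50 bases after each start, from RefSeq on GRCm38.p6. The table held 50 of the 57 members, and 19 short motifs were searched on both strands. TGANTCA is a looser form of TGACTCA, the core bound by AP-1 factors of the Fos and Jun families. TGANTCA was in 16 of 50 member promoters (32.0%), against 7.93% of all 27025 promoters. It was in 9 of 13 Sprr, 4 of 6 fused S100 and 2 of 2 single envelope promoters, but in 1 of 11 S100a and 0 of 18 Lce promoters. Of the 6 genes that rose and have an entry, 4 held it, Rptn, Flg2, Ivl and Sprr1b, and Hrnr and S100a4 did not. Tchhl1, the member that fell, held it too, and the other holders were members that did not pass or were not tested, Lor, Crnn and Sprr1a among them. The remaining motifs, with the count or share of the 50 member promoters before that of all promoters, overlapped in part. TATAAA was in 42.0%, against 14.2%, its shorter form TATAA in 54.0%, against 25.5%, and the stricter AP-1 form TGACTCA in 22.0%, against 5.17%. Of the 6 genes that rose, only 1, Ivl, held TGACTCA, and it was in 0 of the 6 fused S100 promoters. TTTATG, a core read by Cdx factors, was in 6 of 50, against 12.1%, and TTTATNG in 22.0%, against 11.3%. CACCC was in 56.0%, against 56.7%, CCACCC in 32.0%, against 30.9%, and CCACNCC in 28.0%, against 32.6%. AACNGGTT was in 4.0%, against 2.01%, CNGGTT in 68.0%, against 39.3%, and CATNNCATG in 2.0%, against 2.24%. TTGCNNAA was in 5 of 50, against 10.8%, GGAATG in 9 of 50, against 14.6%, and GATAAG in 6 of 50, against 7.43%. ACTTCC was in 34.0%, against 24.1%, AGGAAGT in 22.0%, against 9.57%, CCNNNGG in 58.0%, against 74.4%, and TGACNNNGC in 8 of 50, against 12.5%. TGANTCA was picked for display after these counts were seen, and a match is only a match of letters.

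The 4 promoters are printed with TGANTCA in capitals. It begins 96 bases before the start in Rptn, 69 in Flg2, 116 in Ivl and 111 in Sprr1b. The windows are chr3:93393449-93393748 (plus strand) for Rptn, chr3:93197023-93197322 (plus) for Flg2, chr3:92573686-92573985 (minus) for Ivl and chr3:92438730-92439029 (minus) for Sprr1b.
Rptn: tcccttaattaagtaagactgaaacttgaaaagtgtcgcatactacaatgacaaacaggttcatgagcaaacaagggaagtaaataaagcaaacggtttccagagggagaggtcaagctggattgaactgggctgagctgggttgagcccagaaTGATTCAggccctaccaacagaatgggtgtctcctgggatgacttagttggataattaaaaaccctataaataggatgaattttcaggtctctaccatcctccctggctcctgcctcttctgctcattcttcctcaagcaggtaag
Flg2: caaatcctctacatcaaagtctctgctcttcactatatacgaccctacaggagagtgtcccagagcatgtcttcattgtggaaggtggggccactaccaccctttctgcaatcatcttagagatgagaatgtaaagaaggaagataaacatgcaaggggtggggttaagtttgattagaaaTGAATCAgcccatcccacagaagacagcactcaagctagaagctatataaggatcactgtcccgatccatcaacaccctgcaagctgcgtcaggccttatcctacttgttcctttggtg
Ivl: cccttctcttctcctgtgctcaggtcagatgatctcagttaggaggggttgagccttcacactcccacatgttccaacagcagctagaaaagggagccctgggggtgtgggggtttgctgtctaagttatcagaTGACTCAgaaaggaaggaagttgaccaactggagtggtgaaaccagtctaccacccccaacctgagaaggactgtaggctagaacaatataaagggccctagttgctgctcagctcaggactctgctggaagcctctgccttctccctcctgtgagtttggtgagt
Sprr1b: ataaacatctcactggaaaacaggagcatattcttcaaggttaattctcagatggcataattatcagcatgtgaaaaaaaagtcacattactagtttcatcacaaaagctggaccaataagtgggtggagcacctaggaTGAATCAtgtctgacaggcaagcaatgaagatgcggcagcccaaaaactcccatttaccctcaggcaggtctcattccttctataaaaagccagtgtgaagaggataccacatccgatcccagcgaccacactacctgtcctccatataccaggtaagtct

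Between tissues, most members of the complex were higher in mTEC. On each mTEC array 54 or 55 of the 57 members had a probe well above background, against 16 on the SIEC array labelled Cdx1-/- and 13 on that labelled Cdx1+/+. Over all gene names the shares were 66.7% to 71.1% on mTEC arrays, against 51.1% and 52.7% on the same SIEC arrays. In the fit over 8 arrays with genotype as a term, 50 of 55 members were higher in mTEC (90.9%, against 34.3% of all 25272 genes tested) and 2 were lower (3.64%, against 49.2%), by limma with an adjusted p under 0.05. The median fitted difference was 5.56 over the members and -0.42 over all genes tested. Many member probes were at background in SIEC, and with those set at the floor described below the members' median was 4.17, a lower bound. Of the 50 higher members, 35 had a probe well above background on neither SIEC array. They entered the fit only through the mTEC arrays, where they are high, so the count of 50 rests in part on the filter. With the array median as the scale the median of all genes moved to -0.90 and that of the members to 5.08, so the distance between these fitted medians stayed at 5.98, and with normexp background correction it was 3.35. The calls of all genes split into 8677 higher and 12426 lower, and with normexp background correction into 6046 higher and 14508 lower. Both SIEC arrays and Cdx1-/- mTEC replicate 1 share slide 2.

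For 37 of the 55 members the probe was not well above background on either SIEC array, so only a lower bound can be given. The bound sets the mTEC mean against the lowest signal that counted as well above background on each SIEC array, or the probe's own signal where that was higher. It was at least 2-fold for 33 of the 37. Lce1g was called higher with a bound of 1.82-fold. Lce1l was called higher with a log2 bound of -0.26, so no difference was shown for it. S100a8 was at least 505-fold higher in mTEC (limma adjusted p = 9.3e-08), Crct1 at least 238-fold (2.4e-09) and Sprr1b at least 136-fold (2.4e-09). Among the late envelope genes, Lce3b was at least 88.5-fold and Lce3c at least 58.5-fold higher in mTEC. The bound was at least 72.5-fold for Sprr2d, at least 49.2-fold for Rptn, at least 10.4-fold for Hrnr and at least 9.93-fold for Ivl.

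A further 7 members were well above background on 1 of the 2 SIEC arrays. S100a4, at 5.11 ± 0.46 in mTEC (SD, n = 6), was at -2.94 in SIEC labelled Cdx1-/-, where it was measured, and at -3.76 in SIEC labelled Cdx1+/+, where it was not. The fitted difference of 8.47 (SE 0.11, limma adjusted p = 2.4e-09) rests in part on that dim probe and is a lower bound. S100a9 was at 6.33 ± 0.20 in mTEC (SD, n = 6), and at -1.68 and -4.78 in SIEC labelled Cdx1-/- and Cdx1+/+. Lor was at 4.31 ± 0.25 in mTEC (SD, n = 6), and at -2.85 and -3.39 in the same SIEC libraries, of which only the first was well above background. With the dim probe at the floor, the difference was at least 9.08 for S100a9 and at least 7.44 for Lor. The fitted value for S100a9 was 9.56, and it was 7.87 without the SIEC array labelled Cdx1+/+ and 11.25 without the SIEC array labelled Cdx1-/-. The value of 11.25 rests on the SIEC signal of -4.78, which was not well above background.

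The remaining 11 members were well above background on both SIEC arrays, and most were short S100 genes. S100a10, the annexin A2 partner p11, was lower in mTEC, at 2.07 ± 0.14 (SD, n = 6), against 5.68 and 5.24 in SIEC labelled Cdx1-/- and Cdx1+/+. The difference of -3.39 (SE 0.16, limma adjusted p = 5.3e-07) is the largest of any member in this direction. Sprr2a2 was lower in mTEC too, at 7.65 ± 0.13 (SD, n = 6), against 8.79 and 8.87 in SIEC. Its difference was -1.18 (SE 0.12, limma adjusted p = 5.4e-05), and the other 2 probes gave -3.09 and -2.59, but with quantile normalization the brightest probe gave 0.0058. S100a6 was at 6.09 ± 0.18 in mTEC (SD, n = 6), against 5.51 and 5.49 in SIEC, a difference of 0.59 (SE 0.11, limma adjusted p = 0.0014) that shrank to 0.11 with the array median. S100a14, S100a16, S100a13, S100a11 and S100a1 were well above background on all 8 arrays and higher in mTEC by 5.32, 2.45, 1.91, 1.64 and 1.75.

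**Figure D4:**
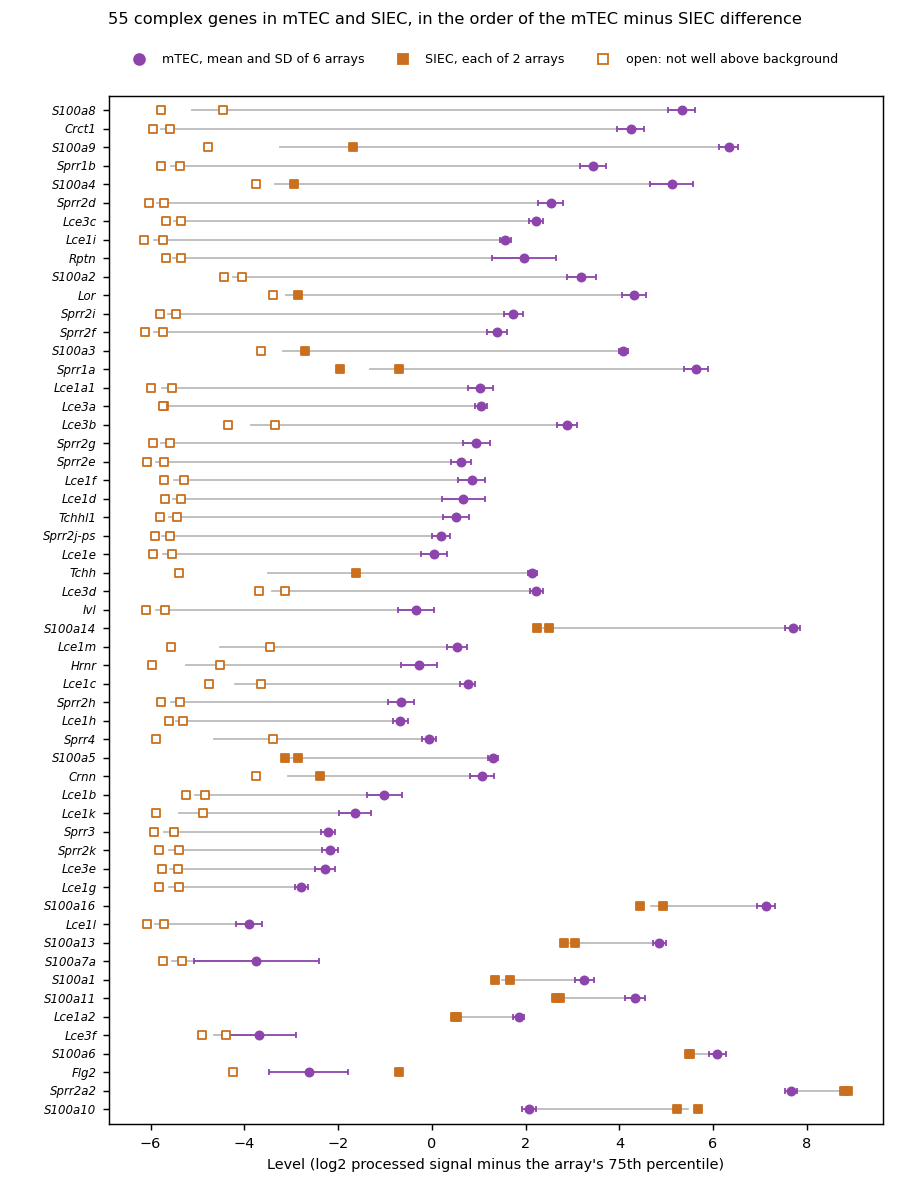
Level (log2 processed signal minus the array's 75th percentile) of the 55 members tested, as the mean and SD of 6 mTEC arrays (circles) and the value on each of 2 SIEC arrays (squares, open where not well above background), in the order of the mTEC minus SIEC difference. All but S100a10, Sprr2a2 and Flg2 have their mTEC mean to the right of both SIEC values.

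Flg2, Lce3f and S100a7a did not pass between tissues. Flg2 was at -2.63 ± 0.85 in mTEC (SD, n = 6), against -4.24 and -0.71 in SIEC labelled Cdx1-/- and Cdx1+/+, so its direction depended on the SIEC array. Without the SIEC array labelled Cdx1+/+ its difference was 2.29, and without the other SIEC array it was -2.61. The value of 2.29 rests on the SIEC signal of -4.24, which was not well above background. S100a7a passed in 4 of 19 alternative fits, over which its difference ran from -0.035 to 4.51. Among them were the fits without Cdx1-/- mTEC replicate 1, with 1.25 (limma adjusted p = 0.0156), and without Cdx1-/- mTEC replicate 2, with 2.17 (0.0308). Lce3f passed without Cdx1+/+ mTEC replicate 3, with 1.20 (0.0345). Neither S100a7a nor Lce3f was well above background on either SIEC array. Their log2 bounds were -0.097 and -0.044, so no difference was shown for either gene.

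Within SIEC there was 1 array per genotype, so no test was possible, and the Cdx1 probe stood against the order of these labels. Of 18 members well above background on at least 1 SIEC array, 3 were at least 2-fold higher in the library labelled Cdx1-/- (5.75% of 19131 genes were) and 2 were at least 2-fold lower (3.53%). Sprr1a was at -0.70 in the library labelled Cdx1-/- and at -1.96 in that labelled Cdx1+/+. S100a9 was at least 4.41-fold and Crnn at least 2.56-fold higher in the library labelled Cdx1-/-, against a probe not well above background. Flg2 was at least 6.83-fold and Tchh at least 3.65-fold lower in the library labelled Cdx1-/-, where their probes were not well above background. Tchh was at -1.61 in the library labelled Cdx1+/+.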

How the data were processed

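RNA of 8 sorted cell samples was hybridised to single-colour Agilent arrays. Per the file headers, the deposited intensity values were extracted with Agilent Feature Extraction 10.7.3.1 on an mm9 design, and the processed signal used here is the authors' background-subtracted intensity. The authors' deposited table of normalized signal values, with no method stated in the file, equals the processed signal times 1 constant per array (median of 1 in each column), and served as an alternative. The number of arrays limits the precision.

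Spots flagged as outliers were left out, log2 values were scaled to the array's 75th percentile, and spots of a probe were averaged. A probe was kept if it cleared background on 2 arrays of a mTEC group or, for the tissue fit, alternatively on 1 SIEC array. The brightest kept probe over the arrays of each fit stood for a gene. Lce1a2 was therefore read by another probe in the tissue fit, which also lists Lce1a1. That probe gave 1.33 between tissues, against 4.02 for the Lce1a2 probe used in mTEC. Gene names come from the files, updated by accession where RefSeq tables allowed. Differences were fitted with limma 3.58.1 (lmFit, eBayes) in R 4.3.3, 2-sided, with p-values adjusted by Benjamini-Hochberg across the whole table and called under 0.05. The same fitting steps were also run on simulated data built from the genes' means and residual spreads. Of 100 genes changed by 1 on the log2 scale, 66 were recovered in the mTEC design and 55 in the tissue design. False calls were 13 of 167 in the mTEC design and 3 of 142 in the tissue design.

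The series' design text calls the samples independent replicates, each a pool of animals. Same-numbered mTEC samples deviated together weakly (correlations of 0.32, 0.15 and 0.15), so the numbers may pair the samples, though the labels do not say so. The main fits treated the samples as unpaired, and a replicate block was run as an alternative. Other alternatives were normexp (offset 50), quantile and array-median scaling, the authors' table, stricter and absent filters, every probe, slide and genotype terms, and leaving out each array. Any member could be named, and values on every array are given for the single genes, for members that passed, for the 3 brightest of each family and for the extremes between tissues. Genes that resemble the complex across the 8 arrays were not listed, since the arrays fall into 2 tissue clusters. The members and gene lists were chosen with earlier results of these data known.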

Additional observations from a re-analysis of the deposited data

Results flagged for a closer look

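Going by the labels, Flg2 and S100a9 differed between the genotypes in opposite directions in mTEC and SIEC, each by more than 2-fold in SIEC and with mTEC groups that did not overlap. The Cdx1 probe stood against the order of the SIEC labels (6.48 in the library labelled Cdx1-/-, 4.87 in that labelled Cdx1+/+). The opposite directions hold only if the labels do. Both genes were flagged for opposite directions, so turning the labels would align them by construction, and that does not bear on the labels. For Flg2, Cdx1-/- minus Cdx1+/+ was 1.37 in mTEC (3 arrays against 3), against -3.53 between the SIEC libraries so labelled. For S100a9 it was -0.28 in mTEC, where it did not pass, against 3.101 between the SIEC libraries. The difference between tissues was not tested, since SIEC had 1 array per genotype. In both genes 1 of the 2 SIEC probes was not well above background.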

How the results depend on the processing

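Of the 9 members called in mTEC, Rptn, Ivl and S100a4 passed in all 16 alternative fits and Hrnr in 15, while Sprr1b passed in 10, Crct1, Flg2 and Tchhl1 in 8 each and S100a2 in 3. These fits are not independent: the slide block, slide 1 alone and leaving out Cdx1-/- replicate 1 are the same fit here, and the authors' table is close to the array-median scaling. None of the 9 changed direction in any of them. The count of members higher in Cdx1-/- mTEC was 8, and 4 with no filter on dim probes, where more genes were tested. Members that passed as higher only in an alternative were Lce1l, Sprr1a, S100a16, S100a6, Lor and Crnn, and S100a8 passed as lower in 4 of the 16. Leaving out each array in turn gave 4 to 7 higher and 0 to 1 lower members. The count of lower members was 1, and it was 2 with normexp, quantile normalization, the strict filter, every probe on its own or the replicate block, and 0 with no filter, the slide block or slide 1 alone. The replicate block changed the calls of Flg2 and S100a8 and no other member's in mTEC, giving 7 higher and 2 lower, and between tissues it changed none. The count of members higher in mTEC than SIEC was 50, and 48 to 51 in all alternatives (50 to 51 without each array). The count lower was 2, with 1 under quantile normalization, where Sprr2a2 was at 0.0058, 4 with no filter, and 2 to 3 without each array. For Flg2 between tissues the sign turned to 2.29 in the Cdx1-/- arrays only and without the SIEC array labelled Cdx1+/+. Both of those fits rest on a SIEC probe not well above background. The Flg2 difference was -2.61 in the Cdx1+/+ arrays only and without the SIEC array labelled Cdx1-/-. The SIEC pair gave 5 members at least 2-fold apart, and 2 with normexp. The cause of these shifts was not tested. Dim signals limit the SIEC values, where 37 of 55 members had only a bound.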
